A study of Mus musculus with 12 samples.

Results

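The interferon-stimulated genes described here are 32 genes, chosen by name as known targets of type I and type II interferon and read in every library of a mouse brain RNA-seq study. All 32 were found among the 43629 gene IDs of the deposited table, and all 32 were among the 19145 genes that passed the filter on low counts. One set of mice received rAAV (recombinant adeno-associated virus), a virus-derived carrier of foreign DNA, with a collagen domain construct, and the control mice received PBS, both injected into the brain ventricles of newborns. Tissue was taken at 3 months of age, with 3 female and 3 male libraries labelled collagen domain and 3 female and 3 male libraries labelled PBS. Strain, promoter and vector serotype are not given in the sources used here, no group received a vector without the construct, and so vector and construct cannot be told apart. The labels do not say that each library came from a separate mouse, so every p-value measures only the spread between these libraries.

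Interferons are secreted proteins, and those of type I are released when a cell senses foreign nucleic acid. Type I interferons bind the receptor made of Ifnar1 and Ifnar2, interferon gamma binds Ifngr1 and Ifngr2, and both receptors signal through Janus kinases to STAT transcription factors. Complexes that contain Stat2 and Irf9 then bind the interferon-stimulated response element (ISRE) in target promoters, while interferon gamma acts through the gamma-activated sequence (GAS). The products of the induced genes degrade viral RNA, block its translation, trap virus at membranes or recruit immune cells. In the brain, microglia, astrocytes, neurons and endothelial cells can all respond, and a low level of these transcripts is present without infection. In whole tissue, fewer cells of a type and less RNA per cell cannot be told apart.

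The reads contradict the labels in part, and every direction below is by label. C1qtnf3, whose collagen domain the series title names, lay at 0.533, 107.2 and 0.186 CPM (counts per 1000000 reads of the scaled library) in females and 88.2, 69.6 and 57.9 CPM in males labelled collagen domain, against 0.251, 22.3 and 0.321 CPM in females and 59.1, 0.659 and 0.706 CPM in males labelled PBS. By these reads 4 libraries go against their treatment label, by Xist and Ddx3y 4 go against their sex label, and 5 go against either. Libraries held 39272127 to 52323985 reads, and the 32 genes together took 0.0156 to 0.0201% of them. Genes known mainly from the cerebellum and hindbrain were high, in samples described as forebrain, in 5 libraries, labelled collagen domain female 2 and male 2 and PBS female 2, female 3 and male 3. A sixth library, PBS male 1, was raised in only part of these genes. It held 1.75 CPM of Hoxa5 and 13.7 CPM of Slc6a5, against at most 0.0626 and 0.44 CPM in the other 6. Its Gabra6, Car8 and Cbln1 were low, at 0.42, 12.4 and 18.8 CPM, against at most 0.94, 13.1 and 21.5 CPM in those 6. The summed level of the 10 markers ranged over 75.29 to 991.1 CPM in libraries labelled collagen domain and over 84.77 to 863.4 CPM in those labelled PBS, with 0 of 10 called for treatment, and Hoxa5, Hoxb5 and Hoxc5 at 0 in the lowest libraries of each. Summed forebrain neuron markers lay at 4069 to 4588 CPM with collagen domain and 4198 to 4780 CPM with PBS.

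With libraries compared as labelled, the level of the interferon-stimulated genes did not differ detectably between those labelled collagen domain and those labelled PBS. C1qtnf3 was not called in this comparison either, although it ran from 0.186 to 107.2 CPM across libraries. With 4 libraries against their treatment label, the lack of calls holds for labels alone. By edgeR's quasi-likelihood test with Benjamini-Hochberg adjustment, 0 of 32 passed an adjusted p under 0.05, against 0% of all 19145 genes tested, and DESeq2 and limma-voom also called 0. At an unadjusted p under 0.05 there was 1, Isg15. The 32 log2 fold changes were split evenly, 16 above and 16 below 0, with a median of 0.005 against 0 over all genes. The 95% interval of the fold change lay within 2-fold in either direction for 30 genes and within 1.5-fold for 23. The 2 genes whose intervals reached beyond 2-fold were Cxcl10 and Oas2, both among the lowest expressed of the set.

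Promoter sequence shows what several of these genes share apart from their names. RefSeq windows of 300 bases (GRCm38.p6, from 250 bases before to 50 after the transcription start) were available for 23 of the 32 genes. A minimal ISRE core was searched as GAAANNGAAA or, on the other strand, TTTCNNTTTC, and matches may overlap each other. It lay in 14 of these 23 genes, or 60.9%, against 3.99% of all 27025 genes in the same table. A GAS, searched as TTCNNNGAA, which reads the same on both strands, lay in 6 of 23, or 26.1%, against 9.55% of all genes, and 4 genes held both. Neither motif was found in 7 of the 23, Irf7 and Irf9 among them. The stretches below end before the transcription start, run 5′ to 3′ on the strand of the gene, and show matches in capitals. They were chosen because they belong to genes that the results turn on and because they show the single, doubled and overlapping forms of the core.

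Isg15, chr4:156200861-156200910, minus strand, ISRE: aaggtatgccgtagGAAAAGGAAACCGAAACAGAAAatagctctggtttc
Ifit3, chr19:34583359-34583430, plus strand, ISRE: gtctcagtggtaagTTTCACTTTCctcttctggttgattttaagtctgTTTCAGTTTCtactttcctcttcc
Ifit1, chr19:34640771-34640827, plus strand, ISRE: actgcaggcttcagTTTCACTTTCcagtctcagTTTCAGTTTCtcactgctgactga
Rsad2, chr12:26456549-26456586, minus strand, ISRE: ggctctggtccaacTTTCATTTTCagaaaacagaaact
Oas1a, chr5:120907526-120907559, minus strand, ISRE: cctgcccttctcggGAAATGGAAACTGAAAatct
Cxcl10, chr5:92349079-92349116, minus strand, ISRE: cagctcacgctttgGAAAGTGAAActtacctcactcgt
Stat2, chr10:128270262-128270299, plus strand, ISRE: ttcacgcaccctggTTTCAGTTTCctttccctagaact
Irf1, chr11:53769910-53769946, plus strand, GAS: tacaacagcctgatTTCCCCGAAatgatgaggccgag

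The Isg15 stretch holds 3 overlapping matches, those of Ifit3 and Ifit1 hold 2 separate ones, and that of Oas1a holds 2 that overlap. Irf1 held a GAS and no ISRE core in its windows. A match is a string of letters in a window and not a measured binding site.

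Levels between genes were compared per length, as CPM per kilobase of merged exon in GENCODE M21. The order on this scale ran from Ifi27, at 16.6 ± 2.15 with collagen domain and 17.2 ± 3.16 with PBS, down to Zbp1, at 0.0587 ± 0.0263 and 0.0556 ± 0.0224 (SD, n = 6 libraries each). Ifit3 followed Ifi27 with 8.63 ± 1.33 and 10.4 ± 1.93, and Ifitm3 with 9.16 ± 1.77 and 8.88 ± 1.23. Ifit3 and Ifitm3 did not differ from each other beyond their spread, while Ifi27 lay above both by more than its SD. Stat2, Ifit2 and Lgals3bp, at 4.17, 3.89 and 3.84 over all 12 libraries, were likewise neighbours closer than their SDs. At the low end stood Cxcl10, Oas2, Mx1 and Zbp1, at 0.103, 0.0975, 0.0929 and 0.0572, again with overlapping spreads. In raw reads the set ran between 2 and 1515 per gene and library, with 10 or more in every library for 29 genes and 100 or more in every library for 17.

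**Figure D1:**
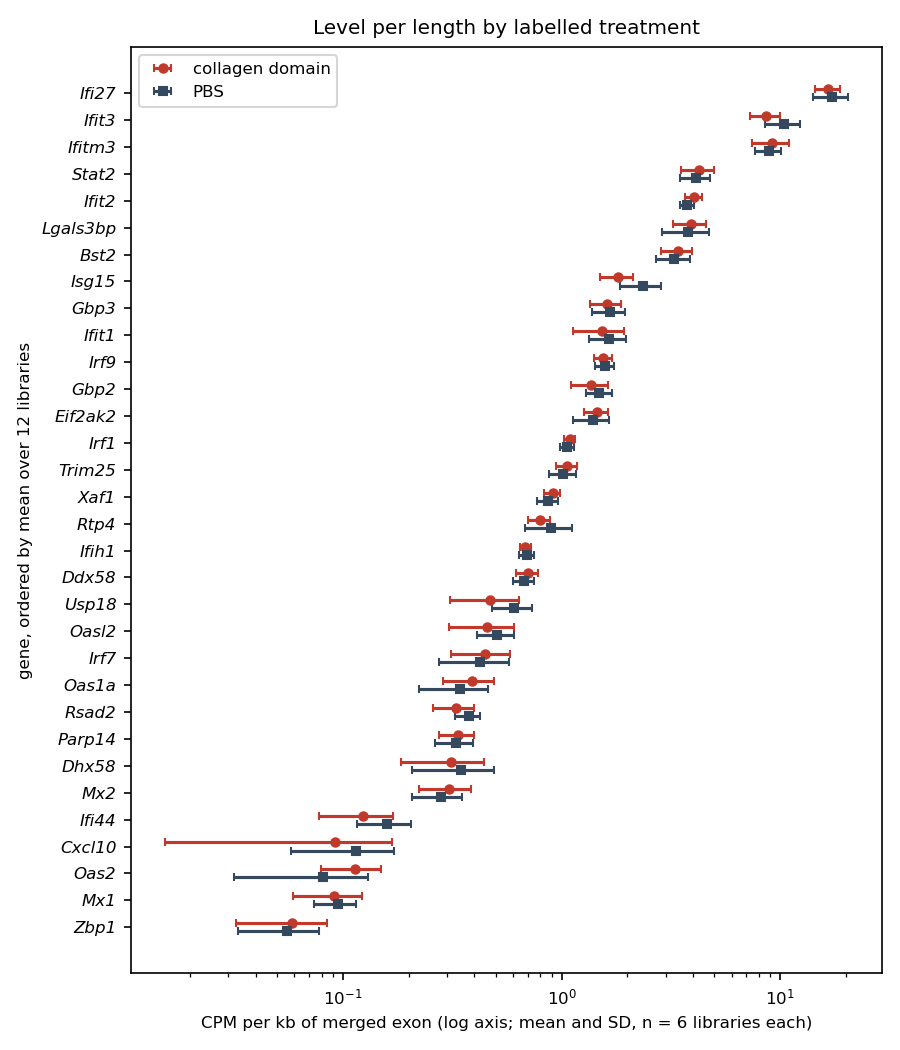
Level per length of the 32 interferon-stimulated genes on a log axis (CPM per kilobase of merged exon), as mean and SD of the 6 libraries labelled collagen domain (red circles) and of the 6 labelled PBS (dark squares), ordered by the mean over 12 libraries. For every gene the bars of the labelled treatments overlap, from Ifi27 at 16.6 and 17.2 to Zbp1 at 0.0587 and 0.0556.

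Upstream of these genes, transcripts of the interferons themselves were at the limit of detection. Of 17 interferon genes looked up, 13, Ifnb1 and Ifna genes among them, had no read in any library, which allows up to 3 reads or 0.0573 to 0.0764 CPM per library (counting error only). Ifnz, a type I interferon gene, reached at most 8 reads, in the library labelled PBS female 2, and Ifng at most 1 read. None of the 17 passed the filter, so none was tested.

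Receptors and Janus kinases were present in every library. Ifnar1 lay between 38.8 and 46.3 CPM with collagen domain and between 38.3 and 45.4 CPM with PBS, and its log2 fold change was 0.08 (SE 0.0603). None of the 11 receptor and signalling genes passed, and 0 had an unadjusted p under 0.05. Of 14 sensors and adaptors outside the set, 0 passed and 1 had an unadjusted p under 0.05, Myd88, the adaptor of Toll-like receptors. Myd88 stood at 3.78, 3.37 and 4.26 CPM in females and 3.24, 3.38 and 3.72 CPM in males labelled collagen domain, against 3.07, 3.77 and 2.81 CPM in females and 2.78, 2.59 and 2.8 CPM in males labelled PBS. Its lowest collagen domain library lay above 5 of 6 PBS libraries, and the log2 fold change was 0.29 (SE 0.0974, adjusted p = 1). Its highest collagen domain libraries, female 3 and female 1, and its highest PBS library, female 2, go against their treatment label by C1qtnf3 reads. PBS male 1, at 2.78 CPM, does so too. The near separation of Myd88 therefore holds for labels alone. Tlr9, the receptor for unmethylated DNA, lay between 1.14 and 1.42 CPM with collagen domain and between 0.522 and 1.48 CPM with PBS.

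The RNA and DNA sensors within the set were Ddx58 (RIG-I), Ifih1 (MDA5), Dhx58 (LGP2, their relative without a signalling domain) and Zbp1, a sensor of Z-form nucleic acid. Ddx58 and Ifih1 were among the steadiest genes, at 4.94 ± 0.566 and 5.58 ± 0.318 CPM with collagen domain and 4.74 ± 0.516 and 5.68 ± 0.447 CPM with PBS (SD, n = 6 each), with log2 fold changes of 0.06 and -0.02. Dhx58 varied far more, with 0.649 CPM as its lowest, 0.825 as its median and 1.61 as its highest library with collagen domain, against 0.773, 0.958 and 1.94 CPM with PBS. Its log2 fold change was -0.15 (SE 0.301, adjusted p = 1), and 0.085 without the library labelled PBS male 3, which held the highest level. Zbp1 held 3 to 16 reads per library, at 0.0737 to 0.31 CPM with collagen domain and 0.11 to 0.333 CPM with PBS. Its log2 fold change of 0.10 (SE 0.357) changed sign without any 1 of 3 libraries, labelled collagen domain female 2, collagen domain male 3 and PBS male 1.

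The transcription factors of the set were Irf7, which amplifies type I interferon production, Irf9 and Stat2, which act together at the ISRE, and Irf1, a target of interferon gamma. Irf9 averaged 8.36 ± 0.78 CPM with collagen domain and 8.51 ± 0.82 CPM with PBS, and Stat2 averaged 25.1 ± 4.37 and 24.4 ± 3.76 CPM (SD, n = 6 each). Irf7 had 1.14 CPM as its lowest, 1.62 as its median and 2.59 as its highest library with collagen domain, against 1.08, 1.42 and 2.6 CPM with PBS. Its highest libraries, collagen domain female 2 and PBS female 2, have opposite labels. Both held high C1qtnf3 reads, at 107.2 and 22.3 CPM, and both were high in cerebellum and hindbrain markers. In the other libraries with high C1qtnf3 reads, Irf7 lay at 1.77, 1.14 and 1.73 CPM in collagen domain males and at 1.08 CPM in PBS male 1. The relation of Irf7 to C1qtnf3 reads was not tested. The log2 fold change of Irf7 was 0.08 in all libraries (SE 0.231). It was 0.33 without the 4 libraries against their treatment label (SE 0.256, adjusted p = 0.819 by edgeR). Irf1 had the smallest p within females and for the interaction of treatment with sex. It stood at 4.33, 4.38 and 4.73 CPM in females and 4.47, 3.94 and 4.19 CPM in males labelled collagen domain, against 4.11, 3.81 and 3.94 CPM in females and 4.59, 4.31 and 4.55 CPM in males labelled PBS. All 3 collagen domain females lay above all 3 PBS females by small steps, while the males overlapped. By C1qtnf3 reads, collagen domain female 1 and female 3 and PBS female 2 go against their treatment label, so the values within females hold for labels alone. Within females the ranges lay apart for 2 of 32 genes, Irf1 and Irf9, or 6.25%, against 5.55% of all genes tested. The log2 fold change was 0.18 within females (SE 0.101, adjusted p = 1) and -0.10 within males (SE 0.101, adjusted p = 1), and their difference of -0.28 did not pass (SE 0.143, adjusted p = 1).

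Among effectors that act on viral RNA and translation, the Ifit proteins bind foreign RNA caps or each other, the oligoadenylate synthetases activate RNase L, Eif2ak2 (PKR) halts translation and Rsad2 (viperin) makes a chain-terminating nucleotide. Of 8 such genes 4 lay above and 4 below 0, and none passed. Ifit3 stood at 15, 19.1 and 15.2 CPM in females and 12.6, 13 and 15.5 CPM in males labelled collagen domain, against 18, 19.2 and 14.2 CPM in females and 16.7, 16.3 and 24 CPM in males labelled PBS. Within males every collagen domain library lay below every PBS library, while the females overlapped. Such separate ranges within males were found for 2 of 32 genes, Ifit3 and Oas2, or 6.25%, against 4.95% of all genes tested. By C1qtnf3 reads PBS male 1 goes against its treatment label. By sex-linked reads collagen domain male 3 and PBS male 1 go against their sex label. The values of both genes within males therefore hold for labels alone. The log2 fold change of Ifit3 was -0.27 in both sexes (SE 0.131, adjusted p = 1) and -0.47 within males (SE 0.173, unadjusted p = 0.0193, adjusted p = 1 by edgeR). Without PBS male 3, its highest library, the value for both sexes was -0.15. Its interaction of -0.41 (SE 0.244, adjusted p = 1) did not pass.

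Oas2 had the highest log2 fold change of the set, from few reads. It stood at 0.394, 0.734 and 0.396 CPM in females and 0.418, 0.676 and 0.421 CPM in males labelled collagen domain, against 0.438, 0.75 and 0.264 CPM in females and 0.376, 0.212 and 0.131 CPM in males labelled PBS, from 17 to 34 and 5 to 36 reads. Within males, by label, all collagen domain libraries lay above all PBS libraries, and within females the ranges overlapped. The log2 fold change was 0.52 in both sexes (SE 0.34, adjusted p = 1) and 1.05 within males (SE 0.481, adjusted p = 1). Among the 4 and 4 libraries left after removing those whose C1qtnf3 reads go against their label, it was 1.33 (SE 0.329, unadjusted p = 0.00342, adjusted p = 0.819 by edgeR). That fit called 0 of 32 members, against 0.0101% of the 19728 genes tested in it, and the fit without the 5 libraries against either label also called 0 of 32, against 0.0102% of 19661. Over these fits the adjusted p of Oas2 lay between 0.681 and 0.819. Its log2 fold change was 0.22 without the 5 libraries high in cerebellum and hindbrain markers (SE 0.302, adjusted p = 0.975). It ran between 0.36, without PBS male 3, and 0.81, without PBS female 2, when 1 library was left out. Its relatives Oas1a and Oasl2 had log2 fold changes in all libraries of 0.18 (SE 0.262) and -0.16 (SE 0.199), and that of Oasl2 was 0.17 in the 4 and 4 libraries and 0.12 without the 5.

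Ifit2 was the steadiest effector, between 13.6 and 17.5 CPM with collagen domain and between 13.2 and 16.2 CPM with PBS. Its log2 fold change was 0.10 in both sexes (SE 0.0756, adjusted p = 1) and 0.18 within females (SE 0.108, adjusted p = 1). Ifit1 lay between 2.52 and 5.66 CPM with collagen domain and between 2.89 and 5.39 CPM with PBS. Rsad2 had 1.02 CPM as its lowest, 1.49 as its median and 1.84 as its highest library with collagen domain, against 1.45, 1.52 and 1.98 CPM with PBS, and its log2 fold change was -0.20 (SE 0.152, adjusted p = 1). Eif2ak2 averaged 7.41 ± 0.964 and 7.09 ± 1.34 CPM (SD, n = 6 each). Near-identical relatives of Ifit3 and Oas1a exist in the mouse genome, and whether the counting split reads among them is not given in the sources used here.

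Effectors at membranes and the antiviral GTPases comprised Ifitm3, which hinders fusion of virus with the cell, Bst2 (tetherin), which holds budding virus, the GTPases Mx1, Mx2, Gbp2 and Gbp3, and the receptor-transporting protein Rtp4. Of these 7 genes 3 lay above and 4 below 0 for treatment, with log2 fold changes between -0.17 (Rtp4, SE 0.169) and 0.11 (Mx2, SE 0.179, and -0.001 without PBS female 3). Ifitm3 averaged 6.21 ± 1.2 CPM with collagen domain and 6.02 ± 0.834 CPM with PBS, and Bst2 averaged 3.08 ± 0.497 and 2.95 ± 0.522 CPM (SD, n = 6 each). Rtp4 had 1.41 CPM as its lowest, 1.71 as its median and 1.88 as its highest library with collagen domain, against 1.17, 1.96 and 2.51 CPM with PBS.

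Mx1 and Mx2 gave the smallest p between the sexes, in opposite directions. Mx1 stood in males at 0.418, 0.303 and 0.554 CPM with collagen domain and 0.42, 0.471 and 0.314 CPM with PBS, against 0.232, 0.259 and 0.303 CPM with collagen domain and 0.355, 0.25 and 0.34 CPM with PBS in females. Mx2 stood in males at 0.688, 0.909 and 1.02 CPM with collagen domain and 0.884, 1.11 and 0.759 CPM with PBS, against 1.46, 1.14 and 1.4 CPM with collagen domain and 1.06, 1.46 and 0.793 CPM with PBS in females. The ranges of males and females overlapped for both genes. The log2 fold change of males over females was 0.51 for Mx1 (SE 0.203, unadjusted p = 0.0265, adjusted p = 1 by edgeR) and -0.44 for Mx2 (SE 0.179, unadjusted p = 0.0307, adjusted p = 1). Between the sexes 0 of 32 genes passed, against 0% of all genes tested by edgeR, and 4 of the 12 sex labels go against the sex-linked reads. These are collagen domain female 1 and male 3 and PBS female 2 and male 1. They include the highest Mx1 of the labelled males, 0.554 CPM, and the highest Mx2 of the labelled females, 1.46 CPM in both libraries. The values for Mx1 and Mx2 therefore compare labels, and a fit by sex-linked reads was not run. DESeq2 called 8 genes between the sexes, 0 of them in the set.

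Isg15, a ubiquitin-like modifier, had the lowest log2 fold change and the only unadjusted p under 0.05 of the set for treatment in both sexes. It stood at 1.02, 1.51 and 1.37 CPM in females and 1.38, 1.21 and 1.71 CPM in males labelled collagen domain, against 1.98, 1.69 and 1.23 CPM in females and 1.7, 1.74 and 2.38 CPM in males labelled PBS. The highest collagen domain library, male 3, lay just above PBS male 1, and the lowest PBS library, female 3, lay within the collagen domain range. The log2 fold change was -0.38 (SE 0.161, 95% interval -0.73 to -0.03, unadjusted p = 0.0354, adjusted p = 1 by edgeR). It was -0.32 within females and -0.44 within males (adjusted p = 1 in each). Leaving out 1 library kept it between -0.46 and -0.30, and without PBS male 3 its interval was -0.65 to 0.05. It was -0.363 without the 4 libraries against their treatment label (95% interval -0.883 to 0.156). Without the 5 against either label it was -0.449 (95% interval -1.054 to 0.155). The library of lowest Isg15, collagen domain female 1, goes against its treatment label by C1qtnf3 reads.

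Usp18, the protease that removes Isg15 from proteins and dampens receptor signalling, had 0.885 CPM as its lowest, 1.26 as its median and 1.92 as its highest library with collagen domain, against 1.25, 1.64 and 2.25 CPM with PBS. The log2 fold change of Usp18 was -0.35 (SE 0.226, adjusted p = 1). It was -0.11 without the 4 libraries against their treatment label (SE 0.284) and -0.18 without the 5 against either label (SE 0.328). Of the collagen domain libraries 3 lay between 0.885 and 0.955 CPM and 3 between 1.57 and 1.92 CPM. Trim25, a ubiquitin ligase that acts on RIG-I, Parp14, an ADP-ribosyltransferase, and Xaf1, a pro-apoptotic protein, had log2 fold changes of 0.06, 0.05 and 0.07.

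Of the secreted products, Lgals3bp, a glycoprotein that binds galectins, averaged 11.1 ± 1.91 CPM with collagen domain and 10.8 ± 2.63 CPM with PBS (SD, n = 6 each). Cxcl10, the chemokine that draws T cells through Cxcr3, had 0.0466 CPM as its lowest, 0.155 as its median and 0.54 as its highest library with collagen domain, against 0.11, 0.239 and 0.471 CPM with PBS. These values come from 2 to 25 and 5 to 18 reads, and the highest and lowest of all 12 libraries, female 2 and female 3, are both labelled collagen domain. Its log2 fold change was -0.30 with a 95% interval of -1.38 to 0.77, the widest of the set. Leaving out collagen domain female 2 gave -0.90, and leaving out PBS male 3 gave -0.04. Of 12 markers of T and NK cells, 8 had at most 6 reads in any library, Cd3e and Cd8a among them, and were not tested. The other 4 were tested and 0 passed. Of these, Trac lay at 0.255 to 0.777 CPM with collagen domain and 0.141 to 0.785 CPM with PBS, and Lck at 1.14 to 1.51 CPM and 1.13 to 1.48 CPM, while Cd4 and Bcl11b, which other brain cells also express, reached 9.5 and 96 CPM.

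Ifi27, a small interferon-induced membrane protein, averaged 24.4 ± 3.16 CPM with collagen domain and 25.3 ± 4.64 CPM with PBS (SD, n = 6 each). Ifi44, an interferon-induced protein of the cytoplasm, had 0.326 CPM as its lowest, 0.789 as its median and 1.1 as its highest library with collagen domain, against 0.654, 0.946 and 1.42 CPM with PBS. Its log2 fold change was -0.36 (SE 0.263, adjusted p = 1), and both of its lowest libraries, male 2 and female 1, are labelled collagen domain. Female 1 goes against that label by its C1qtnf3 reads. The log2 fold change of Ifi44 was -0.03 without the 4 libraries against their treatment label (SE 0.349) and -0.22 without the 5 against either label (SE 0.361).

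**Figure D2:**
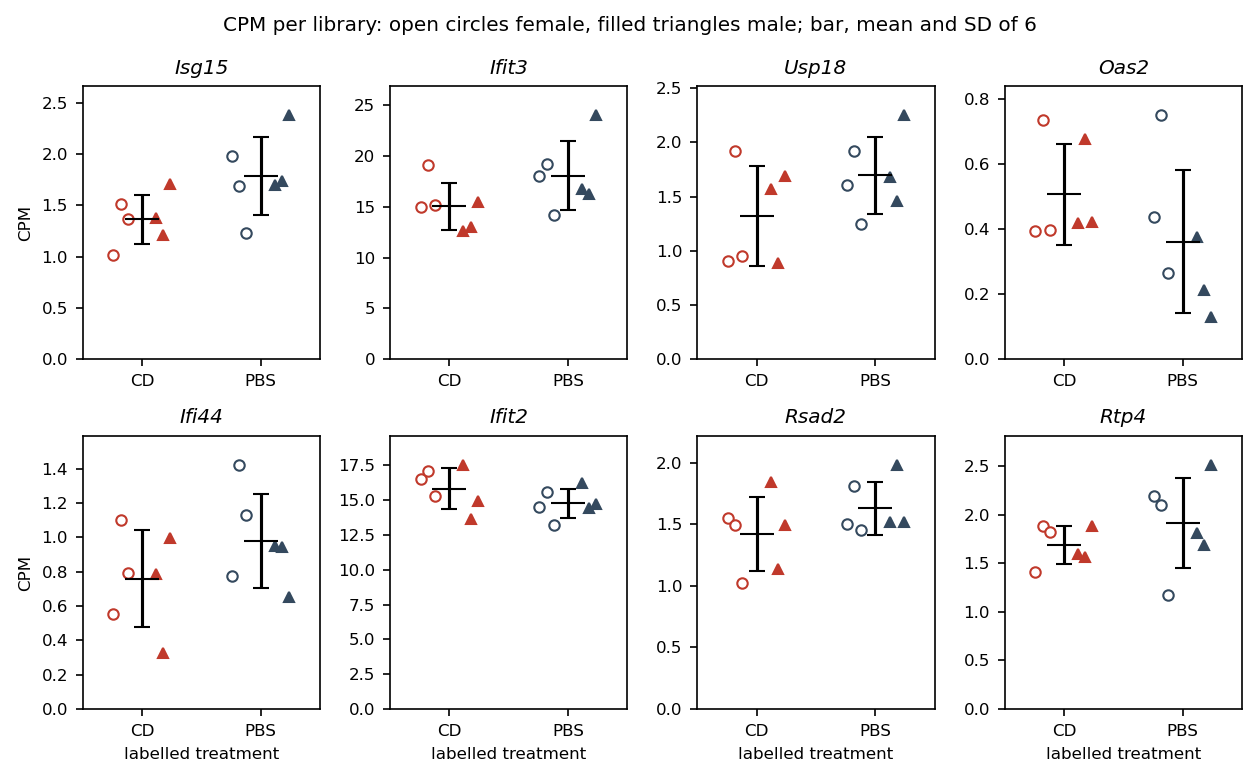
CPM per library of the 8 interferon-stimulated genes with the smallest p for treatment, libraries labelled collagen domain (CD, red) left of those labelled PBS (dark), females as open circles and males as filled triangles, with mean and SD of 6 libraries. The ranges overlap in all 8 panels, Isg15 running from 1.02 to 1.71 CPM with collagen domain and from 1.23 to 2.38 CPM with PBS.

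For none of the 32 genes did the range of the 6 libraries labelled collagen domain lie apart from that of the 6 labelled PBS, against 0.0679% of all genes tested. Within females 0 of 32 passed, against 0% of all genes tested, with a median log2 fold change of 0.002 and none at an unadjusted p under 0.05. Only female 2 of each labelled group held high C1qtnf3 reads, at 107.2 CPM with collagen domain and 22.3 CPM with PBS. The comparison within females could therefore not show an effect of the vector, and the difference between the sexes rests on it in part. Within males 0 of 32 passed, against 0%, with a median of -0.06 and 1 gene, Ifit3, at an unadjusted p under 0.05. Among the males labelled PBS, male 1 held high C1qtnf3 reads, at 59.1 CPM. For the difference between the sexes 0 of 32 passed, against 0%, with 95% intervals within 2-fold for 20 genes. By DESeq2, 0 of 32 passed within females, within males and for the difference.

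**Figure D3:**
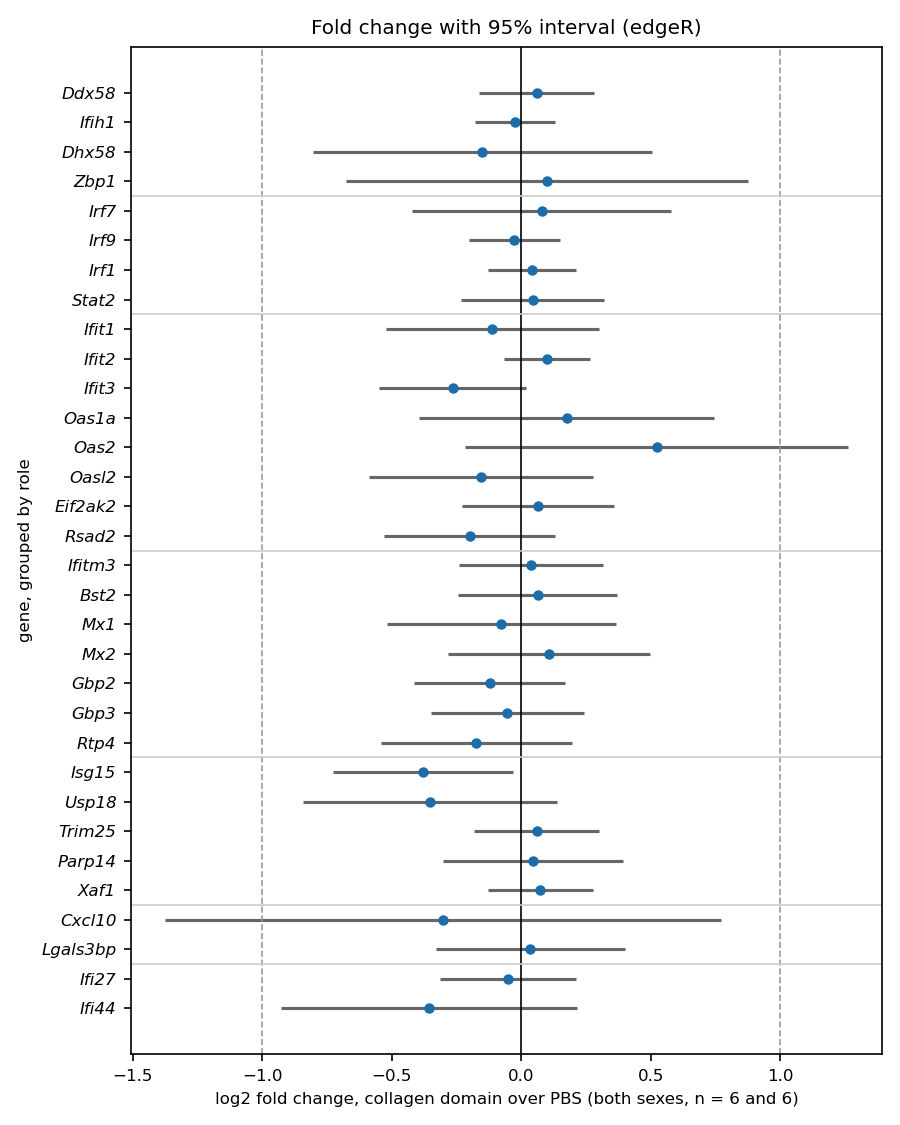
Log2 fold change of collagen domain over PBS in both sexes for the 32 interferon-stimulated genes, grouped by role, with 95% intervals from edgeR (6 and 6 libraries) and dashed lines at 2-fold. The values run from -0.38 for Isg15 to 0.52 for Oas2, and the interval of Isg15 is the one that does not reach 0.

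Targets outside the set were looked up in the same fit. Of 46 further type I interferon targets 0 passed by edgeR, 25 lay above 0 and the median log2 fold change was 0.01. The smallest p belonged to Ly6e, a membrane protein, at 99.9 to 112 CPM with collagen domain and 90.6 to 107 CPM with PBS. Its fold change was 0.14 in log2 (SE 0.0538, adjusted p = 1). Ifi27l2a lay at 0.518 to 1.88 CPM with collagen domain and 0.491 to 4.26 CPM with PBS, with its highest level in PBS male 3. Of 21 further interferon gamma targets 0 passed, 10 lay above 0 and the median was -0.01. Of 11 negative regulators of the pathway 0 passed, with 8 above 0 and a median of 0.04.

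Libraries differed in the level of the set as a whole, within both treatments. In each library the log2 level of each gene was taken minus that gene's own 12-library mean, and the median over the 32 genes was read. The SD of this median between libraries of a group was 0.162 log2 units. It was highest in the libraries labelled collagen domain female 2 and PBS male 3, at 0.26 in each, and in PBS female 2, at 0.18. It was lowest in collagen domain female 1 and male 2, at -0.15 in each. The same median over all genes lay within 0.0122 of 0 in every library, where the scaling of library sizes tends to hold it. Collagen domain female 2 held the highest level of 9 of 32 genes and PBS male 3 that of 8, but these libraries also held the highest level of 13.9% and 17.3% of all genes tested. In collagen domain female 2, 26 of 32 genes were above their mean, against 52.3% of all genes, in PBS female 2, 25, against 51.8%, and in PBS male 3, 24, against 49.5%. The summed level was 199.2 CPM in collagen domain female 2, 206.8 CPM in PBS male 3 and 185.7 CPM in PBS female 2. The other 9 libraries held 158.1 to 181.4 CPM. These 3 libraries were also among the 5 with high cerebellum and hindbrain markers. In the other 2 of those 5 the set was not high: its median gene lay at -0.15 in collagen domain male 2, with 13 of 32 above their mean, and at -0.02 in PBS female 3, with 10 of 32. PBS male 3 also stood apart in several, but not all, listed genes of activated microglia. It held 7.82 CPM of Cst7, against at most 0.326 CPM in any other library, 2.98 CPM of Clec7a, against at most 0.606, and 3.01 CPM of Itgax, against at most 0.691. It also held 1.02 CPM of Ccl3, against at most 0.212, 9.78 CPM of Cd68, against at most 6.13, and 449 CPM of Gfap, an astrocyte gene, against at most 248. Lpl and Axl, of the activated microglia list, were not highest there, at 33.6 and 44.8 CPM, against up to 43.4 and 48.9 CPM in other libraries. Summed markers of activated microglia lay at 1124 to 1286 CPM with collagen domain and 1094 to 1416 CPM with PBS, most of it Apoe at 990 to 1240 CPM, with 0 of 9 called and Ccl3 and Ccl4 too low to test. Summed markers of microglia lay at 273.6 to 342.7 CPM and 288.5 to 365.6 CPM, with 0 of 10 called. The part of these markers in the levels of PBS male 3 was not tested.

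**Figure D4:**
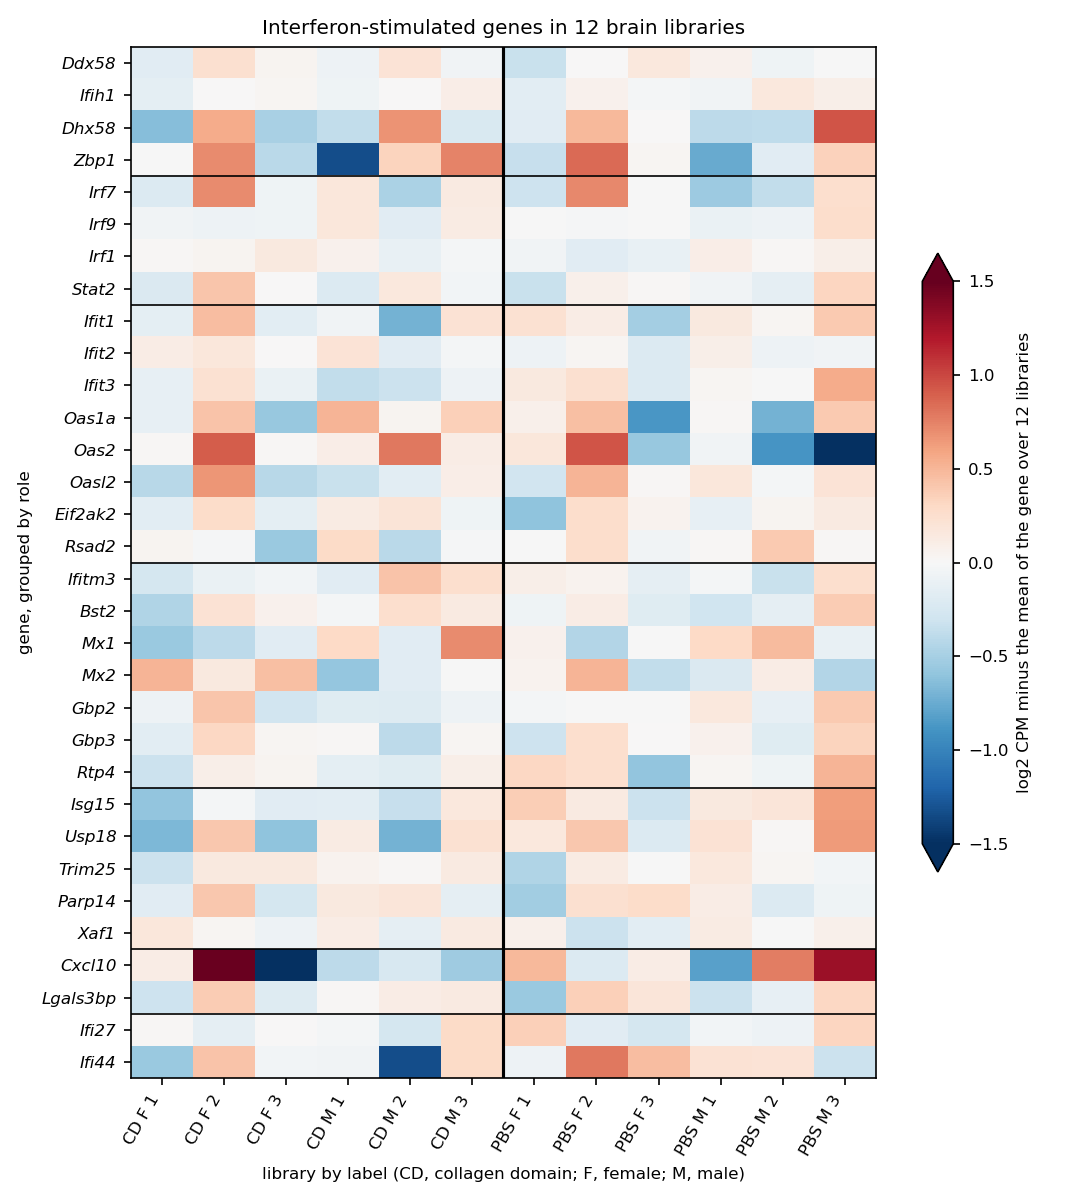
Log2 CPM minus the 12-library mean of the gene, for the 32 interferon-stimulated genes in rows (grouped by role) and the 12 libraries in columns, those labelled collagen domain (CD) left of the black line and those labelled PBS right of it. Red columns stand out in collagen domain female 2, PBS female 2 and PBS male 3, where 26, 25 and 24 of 32 genes were above their mean.

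The cerebellum and hindbrain markers were then entered beside sex and treatment in a fit chosen after the data were seen. Against the marker level, 4 of 32 genes passed as higher, or 12.5%, against 8.51% of all genes tested, and 0 of 32 as lower, against 5.33% (edgeR, adjusted p under 0.05). The share higher is close to that of all genes. The 4 were Dhx58, Stat2, Lgals3bp and Eif2ak2. Dhx58 stood at 1.49 and 1.61 CPM in collagen domain female 2 and male 2, and at 1.42, 1.02 and 1.94 CPM in PBS female 2, female 3 and male 3. In the other 7 libraries it lay between 0.649 and 0.898 CPM, below all of these. PBS male 1, where Hoxa5 and Slc6a5 were raised without Gabra6, Car8 or Cbln1, held 0.773 CPM. Its slope was 0.18 log2 units per log2 unit of marker level (SE 0.0294, adjusted p = 0.00181). The slopes were 0.07 for Stat2 (SE 0.0141, adjusted p = 0.00508), 0.09 for Lgals3bp (SE 0.0232, adjusted p = 0.0274) and 0.07 for Eif2ak2 (SE 0.0199, adjusted p = 0.0481). Stat2 ran from 24.7 to 32.7 CPM in the 5 libraries high in markers and from 19.4 to 24.5 CPM in the other 7. Isg15 had a slope of 0, and with the markers in the fit its treatment log2 fold change was -0.38 (SE 0.168, adjusted p = 0.764). With the markers in the fit 0 of 32 genes passed for treatment and the median was 0.03.

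**Figure D5:**
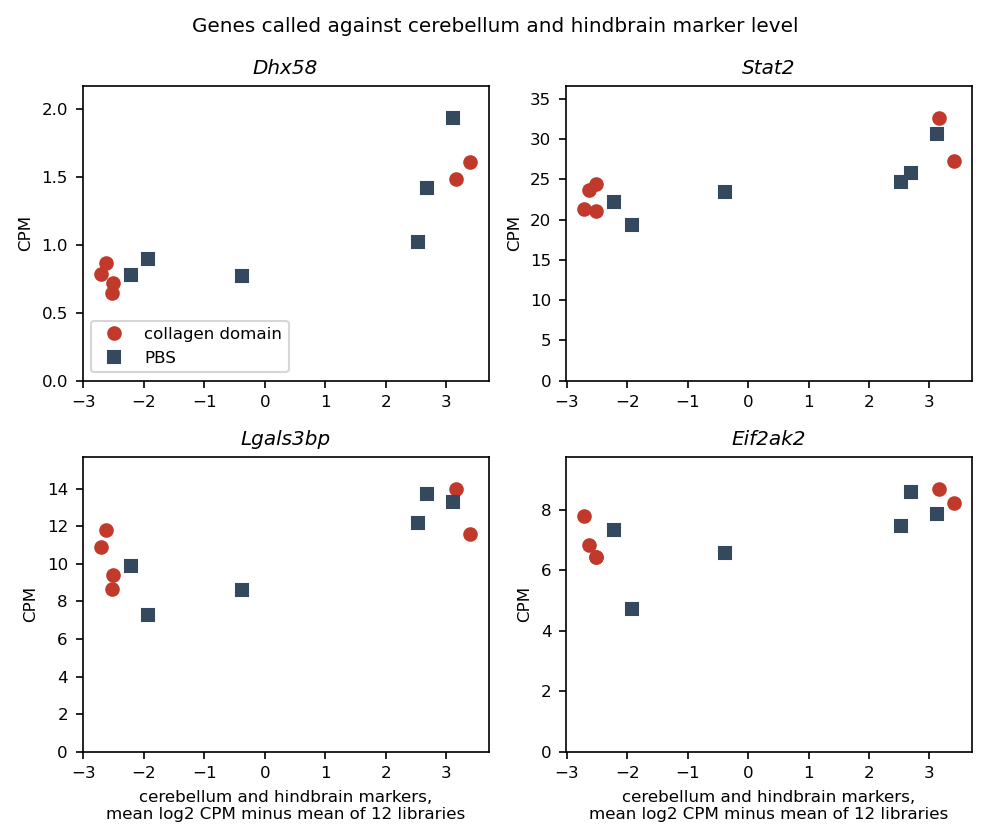
CPM of the 4 interferon-stimulated genes called against the cerebellum and hindbrain marker level, which is the mean log2 CPM of 10 markers minus its 12-library mean, with libraries labelled collagen domain as red circles and those labelled PBS as dark squares. Dhx58 lies at 1.02 to 1.94 CPM in the 5 libraries on the right and at 0.649 to 0.898 CPM in the other 7, with both treatments on both sides.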

How the data were processed

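Poly(A) RNA of pulverised frozen forebrain was read in pairs of 75 bp from TruSeq version 2 libraries, which do not mark strand, per the labels' protocols. The authors deposited raw read counts, 1 row for each Ensembl ID. STAR, DESeq2 and GRCm39 are named per the submitters' processing notes, without roles, and the counting tool, annotation and handling of shared reads are not given in the sources used here. Reads of overlapping genes cannot be split by strand, which concerns Irf9, Irf7, Irf1, Gbp2, Eif2ak2, Rtp4, Usp18, Parp14, Dhx58 and Cxcl10.

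Symbols came from GENCODE M21, which named 42462 of 43629 IDs, and the other 1167 held 0.144% of reads. Within groups, library pairs had chi-square over degrees of freedom of 11.1 to 94.6, so no library repeated another of its group. The counts went into edgeR 4.0.16 under R 4.3.3 (filterByExpr on the 4 groups, TMM, robust quasi-likelihood F-test, Benjamini-Hochberg over 19145 genes, biological coefficient of variation 0.178). An additive model (sex, treatment) gave the effect of treatment in both sexes and that of sex, and a model of the 4 groups gave the rest. Fold changes are log2, SE is the fold change divided by the square root of F, and 95% intervals use the moderated degrees of freedom. CPM uses TMM-scaled library sizes. A library went against its treatment label with under 1000 C1qtnf3 reads if collagen domain, or 1000 and more if PBS, and against its sex label where Xist and Ddx3y showed the other sex. Alternatives were DESeq2 1.42.0, limma 3.58.1 (voom), relative log expression factors, 2 other filters, a threshold of 0.1, a replicate block, no sex term and each library left out. Fits without the contradicted libraries, without PBS male 3, or by hindbrain markers were added after seeing the data. The fits were tested on simulated data.

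The genes and lists were chosen with earlier results of these data known. Named genes are those of smallest p (8 for treatment in both sexes, 2 for each other comparison) and the 6 of widest SD of log2 CPM, with up to 3 of smallest p from other lists; others serve to describe their role group. Of 290 listed symbols 4 were not found. Promoters are RefSeq's, exon lengths GENCODE's, both GRCm38, and figures were drawn in Python with matplotlib.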

Additional observations from a re-analysis of the deposited data

Results flagged for a closer look

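Among 64 sets of 6 libraries (32 genes in each treatment), 4 had a highest or lowest library set apart from the other 5 by more than Dixon's 95% critical value. The ratio given is the gap to the nearest library over the whole range. Chance flags about 1 in 20 groups. Gbp2 in the libraries labelled collagen domain had a ratio of 0.75, with 4.75 CPM in female 2 and 3.37 CPM in the next. Cxcl10 in the same libraries had a ratio of 0.672, with 0.54 CPM in female 2 and 0.209 CPM in the next. Trim25 had a ratio of 0.695, with 4.75 CPM in collagen domain female 1 and 6.01 CPM in the next above it. Irf9 in the libraries labelled PBS had a ratio of 0.764, with 10.1 CPM in male 3 and 8.4 CPM in the next. Collagen domain female 2 and PBS male 3 are both high in cerebellum and hindbrain markers, and their part in these values was not tested.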

How the results depend on the processing

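None of the 32 genes was called in any alternative run. Voom, the filter of 1 CPM (which kept 25 of the 32), the threshold of 0.1, no sex term and the fits added later were run for treatment in both sexes alone. The other 4 comparisons had DESeq2, relative log expression factors, no filter, the replicate block and each library left out. For treatment in both sexes the median log2 fold change of the set lay between -0.05 and 0.04 when 1 library was left out, and edgeR called 0 genes in each such fit. It called 2 genes without the 4 libraries against their treatment label and 2 without the 5 against either label. Within males the count was 0 to 1 with 1 library left out and 3 by DESeq2, for the interaction 1 by DESeq2, and between the sexes 0 to 5 with 1 library left out (5 without PBS male 3) and 8 by DESeq2. Of the 15 genes named by rule, these changed sign, with the cause not tested. With 1 library left out, Zbp1 ranged from -0.094 to 0.31, Dhx58 from -0.35 to 0.085, Mx1 from -0.21 to 0 and Mx2 from -0.001 to 0.20. Dhx58 was 0.039 without the 4 libraries, 0.14 without the 5, 0.038 in the 5 libraries high in cerebellum and hindbrain markers and 0.046 with these markers in the fit. Irf1 was -0.004 without the 4 and -0.014 without the 5, Mx2 was -0.019 without the 5, and Cxcl10 was 0.37 in the 5 libraries high in markers. Of the other 17 genes, followed in the 6 fits added later alone, 8 changed sign in at least 1 of them, namely Oasl2, Gbp3, Irf9, Ifi27, Irf7, Ifih1, Xaf1 and Lgals3bp. Oasl2, at -0.16 in all libraries, was 0.17 without the 4, and Gbp3, at -0.05, was 0.15 without the 5 libraries high in markers. The replicate block called 0 genes for treatment in both sexes and changed no call. Deviations of same-numbered libraries correlated between -0.384 and 0.572 over 18 pairs, with a median of -0.0441. Those of other-numbered libraries correlated between -0.541 and 0.477 over 36 pairs, with a median of -0.0261. The correlations thus showed no pairing by number, but such overlapping ranges cannot exclude it. Depth limits Cxcl10, Zbp1 and Oas2, each under 10 reads in at least 1 library.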
